A study of Mus musculus with 6 samples.

Results

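The mitochondrial ribosomal proteins were compared between mouse ADSCs with Ifit1 knocked down and ADSCs treated with a scrambled control, 3 libraries each. The genes were taken by name, as all protein-coding rows of the deposited table whose symbol starts with Mrpl or Mrps followed by a digit, which gave 78 of the 19877 genes listed. No measured value decided which genes belong, though the set itself was chosen with earlier results of these data known. All 78 were abundant enough to be tested. ADSC is the usual short form of adipose-derived stem cell, a stromal cell grown from fat, and the labels give only the short form. The knockdown group was treated with a short hairpin against Ifit1 and the scrambled group with a scrambled hairpin, both on a genotype labelled WT, and each of 3 labelled batches held 1 library of either group. The sources used here name no hairpin sequence, vector, strain, age or sex. The series' title asks about relief of translational suppression, muscle differentiation and cell therapy of myocardial infarction.

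Mitochondria keep a small genome of their own, and its mRNAs are translated inside the organelle by a dedicated ribosome, the mitoribosome. All proteins of the mitoribosome are encoded in the nucleus, made by cytosolic ribosomes and imported, while its ribosomal RNAs come from the mitochondrial genome. Many of these proteins descend from those of bacterial ribosomes and others are found only in mitochondria, and the ribosome they form makes core subunits of the respiratory chain and of the ATP synthase. IFIT1, by contrast, is an interferon-induced protein of the cytosol that binds the ends of foreign mRNAs and limits their translation.

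Ifit1 itself checked the labels. It had 1.76, 1.48 and 1.51 FPKM (fragments per 1 M sequenced and per kilobase of gene length) in knockdown libraries 1, 2 and 3, against 4.90, 3.75 and 4.97 FPKM in scrambled libraries 1, 2 and 3. The groups did not overlap, and the log2 fold change was −1.27 ± 0.11 (SE, limma adjusted p = 5.71e-05). The depth read from the values was 32.5 to 40.6 M fragments in knockdown libraries and 37.4 to 40.9 M in scrambled libraries. Of 10 stromal markers all were listed above 0, and their summed level was 1423 to 1751 FPKM in knockdown and 2552 to 2904 FPKM in scrambled libraries, with 8 of 9 tested lower and 1 (Cd44) higher. The summed macrophage markers reached at most 2.17 FPKM in knockdown and 2.40 FPKM in scrambled libraries, endothelial and lymphocyte or mast cell markers stayed under 0.1 FPKM in both, Schwann and neural markers under 0.5 FPKM, adipocyte markers were at 3.66 to 4.86 and 4.42 to 5.43 FPKM, and epithelial and mesothelial ones at 13.7 to 18.8 and 19.3 to 27.5 FPKM. Listed were 6 of 8 macrophage, 5 of 6 endothelial and 3 of 6 lymphocyte or mast cell markers. Also listed were 5 of 6 Schwann and neural, 3 of 6 adipocyte and 7 of 8 epithelial and mesothelial ones. The sums cover the listed markers only. In bulk RNA, a change in the mix of cells and a change of RNA per cell cannot be told apart. The part of the lower stromal markers in the results for the mitoribosome was not tested.

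Many mitoribosomal protein genes were a little higher after Ifit1 knockdown, and none passed the test as lower. On the scale of log2(FPKM + 0.5), 34 of the 78 rose (43.6%), 0 fell and 44 did not pass (limma, adjusted p under 0.05, adjusted over all 10311 tested genes). Among all tested genes, 19.8% were called higher, 31.1% lower and 51% in either direction. At an unadjusted p under 0.05, 38 of the 78 were higher and 1 was lower, while 5944 of all 10311 tested genes had such a p in either direction. With limma-voom on recovered fragments 40 of the 78 rose and 0 fell, while 25.7% of all tested genes rose and 26.8% fell in that fit. The median log2 fold change was 0.10 over the 78 genes and −0.05 over all tested genes. Sizes were small: 6 genes had a mean at least 20% higher in knockdown libraries, 25 lay between 10% and 20% higher, 17 between 5% and 10% higher, and 25 within 5% of the scrambled mean. Of all tested genes, 8.45%, 11.1%, 9.26% and 25.4% lay in these ranges, in the same order. Another 5 of the 78 were between 5% and 10% lower and 0 were lower by more. Of all tested genes, 12.1% were between 5% and 10% lower and 33.7% were lower by more than 10%. In a count of library values, the 3 knockdown libraries lay above all 3 scrambled ones for 34 genes and below them for 2, Mrpl14 and Mrps36. For 2 of the genes called higher, Mrps12 and Mrpl38, the groups overlapped. Of all tested genes, 23.8% were separated upward, 37.3% downward and 61.1% in either direction.

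**Figure D1:**
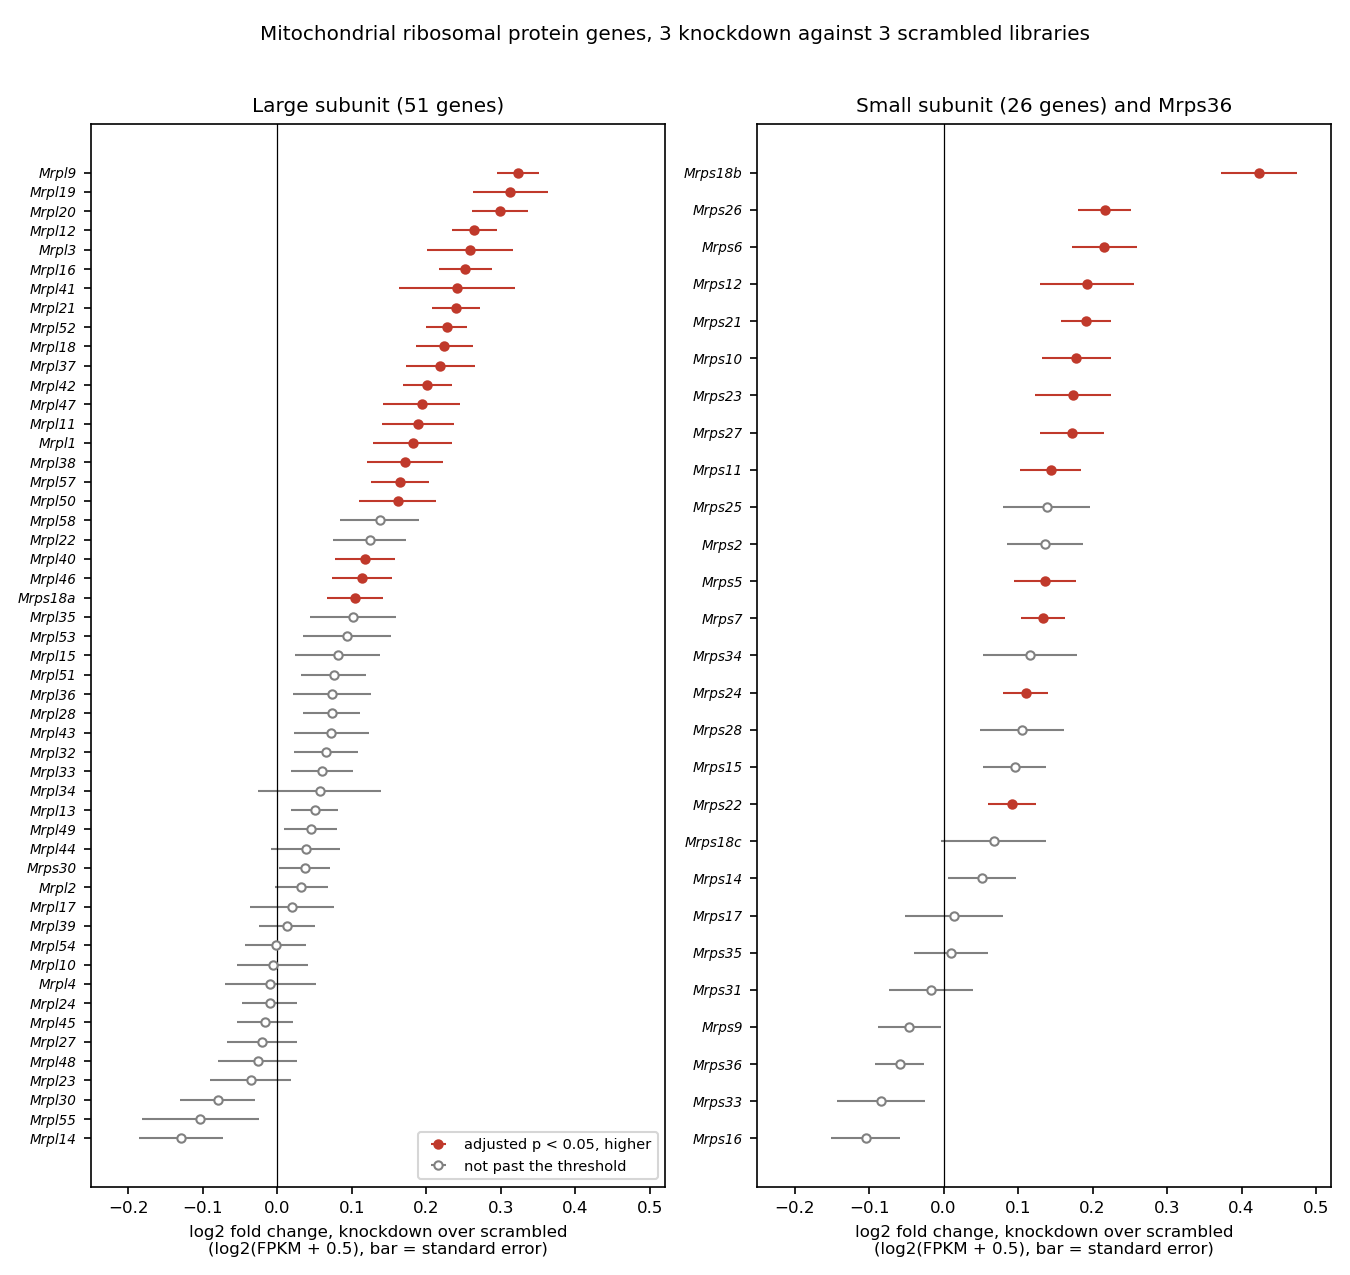
Log2 fold change (knockdown over scrambled, log2(FPKM + 0.5), horizontal axis) of each of the 78 mitochondrial ribosomal protein genes, with its standard error as a bar and genes in order of size within the large subunit (left) and the small subunit with Mrps36 (right). Filled points are the 34 genes past an adjusted p of 0.05, all right of 0, and Mrps18b lies farthest to the right at 0.42.

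The summed level rose with the single genes. The 78 genes together took 3316, 3272 and 3329 of each 1 M fragments in knockdown libraries 1, 2 and 3, against 3040, 3052 and 3016 in scrambled libraries 1, 2 and 3. All 3 knockdown libraries were above the highest scrambled one. Summed over all genes of the table, the deposited FPKM came to 389838 to 392721 in knockdown and 378147 to 380385 in scrambled libraries, so the level unit itself summed higher in knockdown. After rescaling to TPM, in which every library sums to the same total, 22 of the 78 rose and 3 (Mrps16, Mrpl14 and Mrps36) fell, with a median of 0.06, while 14.9% of all tested genes rose and 39.1% fell. Within batches 1, 2 and 3 the median over the 78 genes was 0.10, 0.06 and 0.12, beside −0.06, −0.05 and −0.03 over all tested genes. Of the 34 genes called higher, 33 were higher in knockdown within every batch, and the exception, Mrpl38, differed by −0.00 in batch 2.

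Rises were found in both subunits and in both classes of origin. In the large subunit, 21 of 51 genes rose (median log2 fold change 0.08), and in the small subunit 13 of 26 rose (median 0.12). Of 46 genes with a bacterial homologue, 19 rose (median 0.10), and of 31 classed as specific to mitochondria, 15 rose (median 0.11). The class of 31 includes Mrps18a and Mrps18b, which are related to bacterial S18 but do not take its place. With these 2 genes counted among the bacterial homologues, 21 of 48 and 13 of 29 rose. Beside these counts, 19.8% of all tested genes rose. No test of the difference between these classes was made. Separate cultures or animals are not mentioned in the labels, and the p-values therefore reflect the spread of these 6 samples alone, part or all of which may be technical.

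Among large-subunit genes, Mrpl9, whose bacterial counterpart L9 reaches out from the ribosome's side, rose most. Mrpl9 had 76.9, 78.5 and 79.1 FPKM in knockdown libraries 1, 2 and 3, against 61.3, 62.8 and 63.1 FPKM in scrambled libraries 1, 2 and 3. The libraries of a group differed little and the groups lay far apart, with a log2 fold change of 0.32 ± 0.03 (adjusted p = 6.45e-05) and nearly the same value in each batch. Mrpl20, whose bacterial counterpart is an early assembly protein, had 72.4, 70.2 and 71.3 FPKM in knockdown, against 57.4, 60.8 and 55.5 FPKM in scrambled libraries (0.30 ± 0.04, adjusted p = 0.000315). Mrpl19 was much less abundant, with 8.92, 8.90 and 8.42 FPKM in knockdown, against 6.85, 7.29 and 6.70 FPKM in scrambled libraries (0.31 ± 0.05, adjusted p = 0.00107). Neither gene's groups overlapped, so a rise of about this size was seen at high and low levels. Mrpl3, whose bacterial counterpart reaches close to the site of peptide bond formation, had 8.75, 9.02 and 9.76 FPKM in knockdown and 8.07, 7.46 and 7.23 FPKM in scrambled libraries (0.26 ± 0.06, adjusted p = 0.00592). Its difference was 0.11, 0.26 and 0.41 on the log2 scale in batches 1, 2 and 3, and thus uneven. Mrpl16, a protein next to the tRNA sites, had 31.2, 29.5 and 30.1 FPKM in knockdown and 24.9, 25.05 and 25.97 FPKM in scrambled libraries (0.25 ± 0.04, adjusted p = 0.000589). Mrpl41, a protein found only in mitochondria, had 8.01, 7.10 and 7.48 FPKM in knockdown and 6.34, 6.98 and 5.61 FPKM in scrambled libraries (0.24 ± 0.08, adjusted p = 0.0299). The groups of Mrpl41 only just failed to touch, and its call was lost without scrambled library 1 (adjusted p = 0.0661), scrambled library 3 (0.0903) or knockdown library 1 (0.0955), after rescaling to TPM (0.0546) and with no filter on low values (0.0946).

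**Figure D2:**
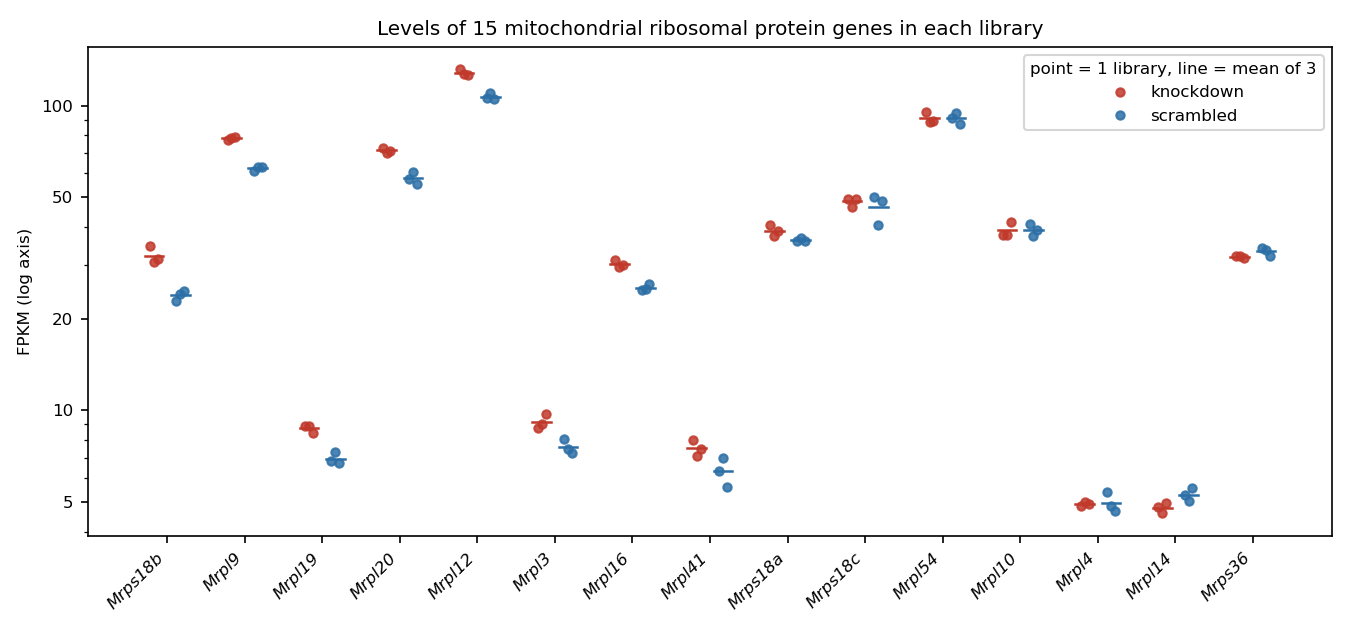
FPKM (log axis) of 15 mitochondrial ribosomal protein genes in each library, with knockdown libraries to the left of scrambled ones for each gene, 1 point per library and a line at the mean of 3. The knockdown points stand clear of the scrambled ones for Mrps18b, Mrpl9, Mrpl19, Mrpl20 and Mrpl12, and the groups overlap for Mrps18c, Mrpl54, Mrpl10 and Mrpl4.

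Mrps18b showed the highest fold change of the 78 genes, and it belongs to a trio of copies. Mammals carry 3 genes related to bacterial ribosomal protein S18: Mrps18c takes the bacterial protein's place, Mrps18b sits elsewhere in the small subunit, and Mrps18a is part of the large subunit. Mrps18b had 34.6, 30.7 and 31.4 FPKM in knockdown libraries 1, 2 and 3, against 22.8, 24.2 and 24.6 FPKM in scrambled libraries 1, 2 and 3. The lowest knockdown library stood well above the highest scrambled one, with means of 32.2 ± 2.08 and 23.9 ± 0.948 FPKM (SD, n = 3 each), 35.0% higher in knockdown. The log2 fold change was 0.42 ± 0.05 (adjusted p = 0.000265), and 0.37 without knockdown library 1, the highest. Mrps18a had 40.7, 37.3 and 38.8 FPKM in knockdown and 35.9, 36.7 and 35.9 FPKM in scrambled libraries (0.10 ± 0.04, adjusted p = 0.0436). Its groups were close, and the call was lost in 10 of 18 other settings, among them batch as a block (adjusted p = 0.0588), TPM (0.194) and 5 of the 6 fits without a library (0.0657 to 0.137, the exception being knockdown library 2). Mrps18c had 49.5, 46.6 and 49.5 FPKM in knockdown and 50.1, 40.7 and 48.5 FPKM in scrambled libraries, with overlapping groups and 0.07 ± 0.07 (adjusted p = 0.452).

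The balance between the copies was measured within each library. The ratio of Mrps18b to Mrps18a was 0.850, 0.821 and 0.810 in knockdown libraries and 0.636, 0.658 and 0.686 in scrambled libraries, and that of Mrps18b to Mrps18c was 0.699, 0.658 and 0.634 in knockdown and 0.455, 0.593 and 0.507 in scrambled libraries. Both ratios were higher in every knockdown library than in any scrambled one, by 0.33 and 0.36 on the log2 scale. The two-sided exact permutation p was 0.1 for each, the smallest that 3 libraries against 3 can give, and 0.15 adjusted over the 3 ratios. For Mrps18a to Mrps18c the ratios overlapped (log2 difference 0.04, exact permutation p = 0.9). Since Mrps18b had been the largest rise, its place in these ratios was chosen with earlier results known.

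By position in the ribosome, the stalk gave a mixed picture. The stalk of the large subunit is the arm that recruits translation factors, and 2 of its 5 genes rose. Mrpl12, which forms the flexible arm and also binds the mitochondrial RNA polymerase, had 132, 127 and 126 FPKM in knockdown and 106, 110 and 105 FPKM in scrambled libraries, without overlap (0.26 ± 0.03, adjusted p = 0.000200). Mrpl11, at the stalk's base, rose as well (0.19 ± 0.05, adjusted p = 0.0113), while Mrpl10, to which Mrpl12 is anchored, stood at −0.01 ± 0.05 and Mrpl54 at −0.00 ± 0.04, with overlapping groups. Mrpl10 had 37.8, 37.7 and 41.5 FPKM in knockdown and 40.8, 37.5 and 39.1 FPKM in scrambled libraries. Of 9 genes of the central protuberance, which contacts the small subunit and the tRNAs, 5 rose, led by Mrpl52 (118 ± 2.18 FPKM in knockdown and 101 ± 1.65 FPKM in scrambled libraries, log2 fold change 0.23 ± 0.03, adjusted p = 0.000273). Of 8 genes around the exit through which the new peptide leaves, 1 rose, Mrpl47 (0.19 ± 0.05, adjusted p = 0.0127), and the median of the 8 was 0.02. Mrpl45, which tethers the ribosome to the inner membrane, was among the 7 that did not pass (−0.02 ± 0.04). Of 8 genes in the head of the small subunit 3 rose, led by Mrps10 (0.18 ± 0.05, adjusted p = 0.0115), with a median of 0.03. Beside these counts, 19.8% of all tested genes were called higher and 31.1% lower. The site groups hold 5 to 9 genes each and were not tested against each other.

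No gene of the list was called lower, and the negative values were small. Mrpl14, a protein of the subunit interface, had 4.83, 4.59 and 4.96 FPKM in knockdown and 5.28, 5.03 and 5.57 FPKM in scrambled libraries (−0.13 ± 0.06, adjusted p = 0.0867). All knockdown values were below the scrambled ones, but the difference did not pass. Mrps16 had 56.1, 58.6 and 63.2 FPKM in knockdown and 66.1, 62.9 and 62.1 FPKM in scrambled libraries, with overlap (−0.10 ± 0.05, adjusted p = 0.0891), and passed as lower in 5 of 18 other settings, including the fit without knockdown library 3 (−0.15, adjusted p = 0.0113). Mrps36 carries the name of a ribosomal protein but is now known as a component of the α-ketoglutarate dehydrogenase complex. It had 32.0, 32.1 and 31.7 FPKM in knockdown and 34.1, 33.6 and 32.2 FPKM in scrambled libraries, without overlap (−0.06 ± 0.03, adjusted p = 0.165). Closest to no difference, besides Mrpl54 and Mrpl10, was Mrpl4, which had 4.85, 5.01 and 4.92 FPKM in knockdown and 5.40, 4.84 and 4.68 FPKM in scrambled libraries (−0.01 ± 0.06).

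Levels across the list spanned 24.5-fold. The most abundant genes were Mrpl12, Mrpl13 and Mrpl52, at 99.3 to 132 FPKM over the 6 libraries, and the least abundant were Mrpl1, Mrpl4 and Mrpl14, at 4.34 to 5.57 FPKM. Of these 6 genes, Mrpl12, Mrpl52 and Mrpl1 rose. Mrpl1 had 5.15, 4.98 and 5.25 FPKM in knockdown and 4.41, 4.64 and 4.34 FPKM in scrambled libraries (0.18 ± 0.05, adjusted p = 0.0186), a call lost without scrambled library 1 (0.0604) or scrambled library 3 (0.0614). Mrpl13 did not pass (0.05 ± 0.03, adjusted p = 0.216). FPKM divides by gene length, and the lengths implied by the deposited values were 7525 bases for Mrpl14 and 8452 for Mrpl4, against 949 and 2617 bases of exons in GENCODE M21, so their low level depends on the gene model used. The same holds at the upper end, where the implied lengths were 786 bases for Mrpl13 and 412 for Mrpl52, against 7936 and 1109 bases of exons. The order of the levels and their span therefore rest on the deposited gene lengths. The 78 genes had 451 to 5029 fragments in a library. The SD between libraries of a group had a median of 0.06 on the log2 scale over the 78 genes, beside a median counting error of 0.04. Across the 78 genes, Spearman's rho of the log2 fold change was 0.20 with the mean level, −0.02 with gene length and 0.08 with GC content, as a description across genes that share the same 6 libraries. Over all tested genes the same values were 0.34, −0.13 and −0.07.

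The rise of the mitoribosomal genes was set beside that of the cytosolic ribosomal proteins under other scalings. In the comparison as reported, 61 of 80 tested cytosolic ribosomal protein genes rose and 0 fell (median 0.12). Under quantile normalization, 38 mitoribosomal genes rose and 1 fell (median 0.11), while 20 cytosolic genes rose and 7 fell (median 0.03). Of all tested genes, 24.1% rose and 21.9% fell under that normalization (median 0.01). With a trend of the fold change in GC content, length and level removed, 37 mitoribosomal genes rose and 2 fell (median 0.10), while 19 cytosolic genes rose and 13 fell (median 0.01). In that fit 24.4% of all tested genes rose and 22.6% fell (median 0.01). Median centring, which sets the typical gene of each library equal, gave 51 higher and 0 lower mitoribosomal genes (median 0.17). Under it 77 cytosolic genes rose and 0 fell (median 0.18), beside 29.1% and 22.2% of all tested genes. After rescaling to TPM, 22 mitoribosomal genes rose and 3 fell, while 43 cytosolic genes rose and 1 fell, beside 14.9% and 39.1% of all tested genes. With limma-voom 40 mitoribosomal genes rose and 0 fell, while 71 cytosolic genes rose and 0 fell, beside 25.7% and 26.8% of all tested genes. Over 18 other settings the median of the 78 genes lay 0.089 to 0.165 above that of all tested genes. Of the 34 genes called higher, 20 were called in each of those settings, among them Mrps18b, Mrpl9, Mrpl19, Mrpl20, Mrpl12, Mrpl3 and Mrpl16. The difference between mitochondrial and cytosolic ribosomal protein genes was not tested.

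**Figure D3:**
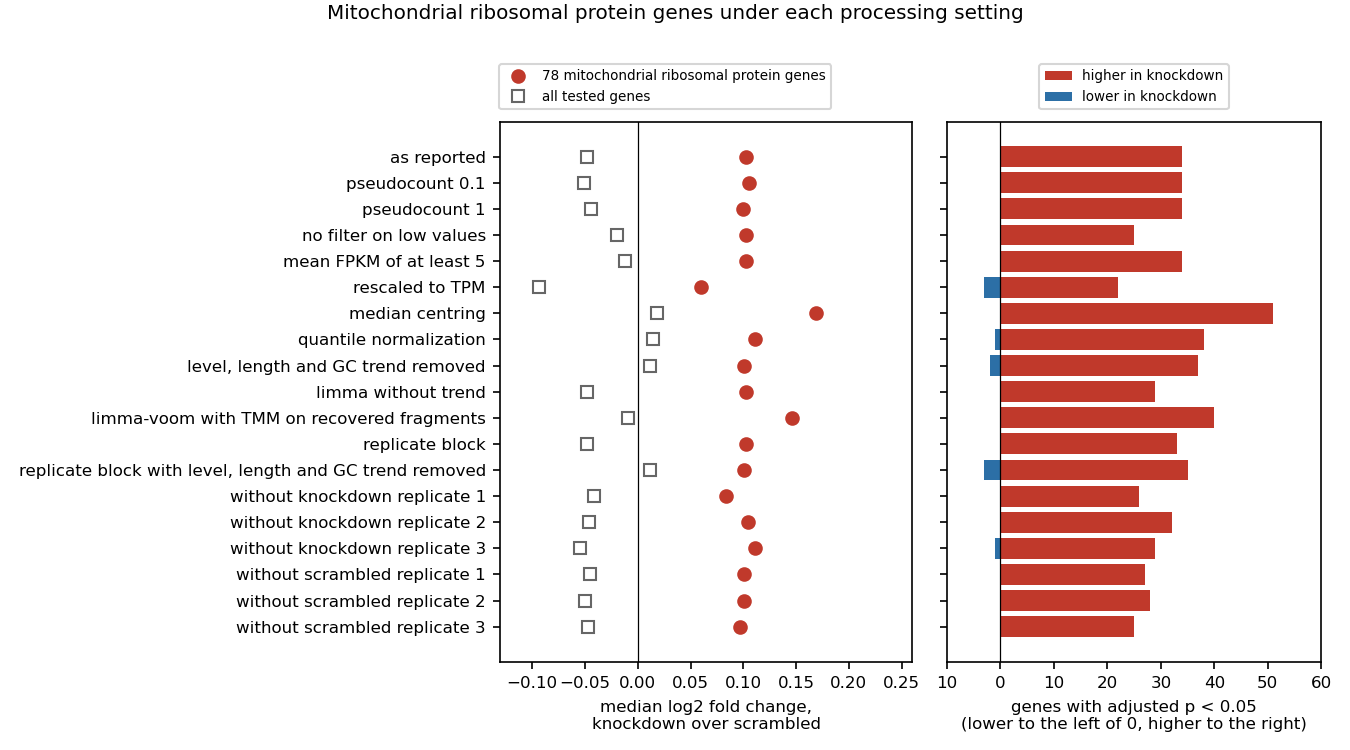
Left, the median log2 fold change (knockdown over scrambled) of the 78 mitochondrial ribosomal protein genes (filled circles) and of all tested genes (open squares) under each processing setting. Right, the number of the 78 genes past an adjusted p of 0.05, higher to the right of 0 and lower to the left. The circles stay right of the squares throughout, and the count of higher genes runs between 22 with TPM and 51 with median centring.

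Mitoribosome subunits that do not carry an Mrp name went both ways. Ptcd3, a small-subunit protein that binds RNA, had 25.3, 25.7 and 25.97 FPKM in knockdown and 21.8, 23.5 and 22.6 FPKM in scrambled libraries, without overlap (0.18 ± 0.04, adjusted p = 0.00445). Dap3, a GTP-binding protein of the small subunit's head, had 19.5, 19.3 and 19.7 FPKM in knockdown and 20.99, 20.4 and 21.4 FPKM in scrambled libraries (−0.10 ± 0.03, adjusted p = 0.0376). Dap3 was lower in all 3 knockdown libraries, but its call was lost in 10 of 18 other settings, including those without scrambled library 1 (adjusted p = 0.0998), scrambled library 3 (0.112), knockdown library 1 (0.0803) and knockdown library 2 (0.101), and under median centring (−0.03, 0.432). Chchd1 (0.07), Gadd45gip1 (0.07) and Aurkaip1 (−0.02) did not pass.

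Genes that build and serve the mitoribosome were then read from the same fit, in lists made with earlier results of these data known. The 9 lists, the 5 subunits with other names included, held 143 tested genes, of which 55 rose (38.5%) and 15 fell (10.5%), beside 19.8% and 31.1% of all tested genes. After rescaling to TPM 45 rose (31.5%) and 21 fell (14.7%), beside 14.9% and 39.1% of all tested genes. Under median centring 73 rose and 5 fell, beside 29.1% and 22.2% of all tested genes, and with limma-voom 65 rose and 5 fell, beside 25.7% and 26.8%. Of 28 tested genes of mitoribosome assembly and rRNA modification, 7 rose and 2 fell (median 0.00), a share of rises near the 19.8% of all tested genes and a share of falls (7.14%) under their 31.1%. C1qbp, a matrix protein linked to mitoribosome biogenesis, had 226 ± 10.1 FPKM in knockdown and 181 ± 5.88 FPKM in scrambled libraries (0.32 ± 0.04, adjusted p = 0.000252). Noa1, a GTPase of small-subunit assembly, rose by 0.39 and the RNA-binding protein Fastkd2 by 0.31, while Ngrn fell by 0.21 on the log2 scale. Of 17 translation factors, 5 rose and 3 fell (median 0.03). The elongation factors Gfm1 (0.28) and Tufm (0.18), the mRNA-stabilising protein Lrpprc (0.24) and the peptide deformylase Pdf (0.28) were among those that rose. Of 20 genes of mitochondrial DNA transcription and RNA processing, 8 rose and 3 fell (median 0.08). Elac2, which cuts the 3' ends of mitochondrial tRNAs, had 17.6, 17.8 and 17.1 FPKM in knockdown and 13.1, 12.8 and 12.9 FPKM in scrambled libraries (0.42 ± 0.04, adjusted p = 6.45e-05). Its groups were far apart, as were those of Tbrg4 (0.41), a FASTK-family protein, and of Trmt10c (0.26), a subunit of mitochondrial RNase P. Fastkd5, needed for processing of unconventional mitochondrial mRNA ends, rose by 0.25.

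Of these lists, protein import held the most rises. Of 24 tested import genes, 15 rose (62.5%) and 1 fell (4.17%), beside 19.8% and 31.1% of all tested genes. Their median was 0.15. With TPM the counts were 14 and 2, beside 14.9% and 39.1% of all tested genes. Tomm5, a small subunit of the outer-membrane entry gate, had 96.8, 89.7 and 91.3 FPKM in knockdown and 66.3, 67.4 and 64.2 FPKM in scrambled libraries (0.49 ± 0.04, adjusted p = 3.49e-05). Timm8a1, a chaperone of the intermembrane space, had 35.9 ± 0.830 FPKM in knockdown and 24.4 ± 1.84 FPKM in scrambled libraries (0.55 ± 0.05, adjusted p = 9.42e-05). The channel Tomm40 (0.33) and the receptor Tomm22 (0.28) also rose. Of 11 chaperones and proteases, 5 rose (45.5%) and 3 fell (27.3%). The chaperonin pair Hspd1 (0.33) and Hspe1 (0.32) and the protease Clpp (0.32) rose, whereas the protease Lonp1 had 49.5, 53.2 and 50.8 FPKM in knockdown and 74.4, 73.5 and 81.7 FPKM in scrambled libraries (−0.58 ± 0.05, adjusted p = 4.86e-05). Of 15 genes of the outer membrane, cristae and matrix often used as gauges of mitochondrial content, 7 rose (46.7%) and 1 fell (6.67%). Their median was 0.10. Under TPM 4 rose and 2 fell. There were 2 falls with batch as a block, where 30.8% of all tested genes fell. Without scrambled library 2 there were 4 rises, and 17.2% of all tested genes rose. Phb (0.29) and Phb2 (0.25), the prohibitins, Cs (0.18), citrate synthase, and the channel Vdac2 (0.16) rose, though Cs did not pass under quantile normalization (adjusted p = 0.0567).

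Regulators of nuclear genes for mitochondria were few and mixed. Of 10 tested, 4 rose and 1 fell, beside 19.8% and 31.1% of all tested genes. After rescaling to TPM 2 rose and 2 fell, beside 14.9% and 39.1%. Without scrambled library 1, knockdown library 2 or knockdown library 3 there were 2 rises each, beside 16.7%, 17% and 19.2% of all tested genes. Myc had 84.1, 84.4 and 84.99 FPKM in knockdown and 71.1, 70.1 and 71.8 FPKM in scrambled libraries, with a wide gap between tight groups (0.25 ± 0.03, adjusted p = 0.000134). Pprc1, a coactivator of the PGC-1 family, had 31.8 ± 0.752 FPKM in knockdown and 25.9 ± 0.387 FPKM in scrambled libraries (0.29 ± 0.03, adjusted p = 0.000202). The nuclear receptor Esrra rose by 0.12 (adjusted p = 0.0217), which did not pass without scrambled library 1 (0.0592), scrambled library 3 (0.0702), knockdown library 2 (0.0502) or knockdown library 3 (0.0501). Atf5, a transcription factor of the mitochondrial unfolded protein response and of the integrated stress response, had 45.1, 47.6 and 48.0 FPKM in knockdown and 85.6, 85.1 and 92.7 FPKM in scrambled libraries (−0.90 ± 0.04, adjusted p = 9.67e-06), the opposite direction to the mitoribosomal genes.

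The mRNAs that the mitoribosome translates were measured in the same libraries. Of 13 tested, 3 rose (23.1%) and 0 fell (median 0.09), a share of rises near the 19.8% of all tested genes, of which 31.1% fell. ND1, a complex I subunit, had 3091 ± 135 FPKM in knockdown and 2709 ± 61.8 FPKM in scrambled libraries (0.19 ± 0.03, adjusted p = 0.00209). ND2 (0.24) and ND4 (0.19) rose as well, and COX1, the core of complex IV, stood at −0.09 (adjusted p = 0.0679). All 3 rises failed to pass under quantile normalization (adjusted p = 0.104 for ND1, 0.0951 for ND2 and 0.0746 for ND4), where 1 gene of the list was called higher and 1 lower. When batch entered the fit as a block, there were 6 rises and 1 fall. Leaving out knockdown library 1 gave 5 rises, and removing the trend in GC content, length and level gave 0 rises and 1 fall. COX1 passed as lower with the block (adjusted p = 0.0176), with TPM (0.0139) and without knockdown library 3 (0.0196). Levels within the list were uneven, since ND1, ND2, ND4, ND5, CYTB and COX1 were listed at 553 to 3967 FPKM and COX2, COX3, ATP6, ATP8, ND3, ND4L and ND6 at 3.35 to 42.6 FPKM in every library. The sources used here do not state how counting treated the mitochondrial genome.

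**Figure D4:**
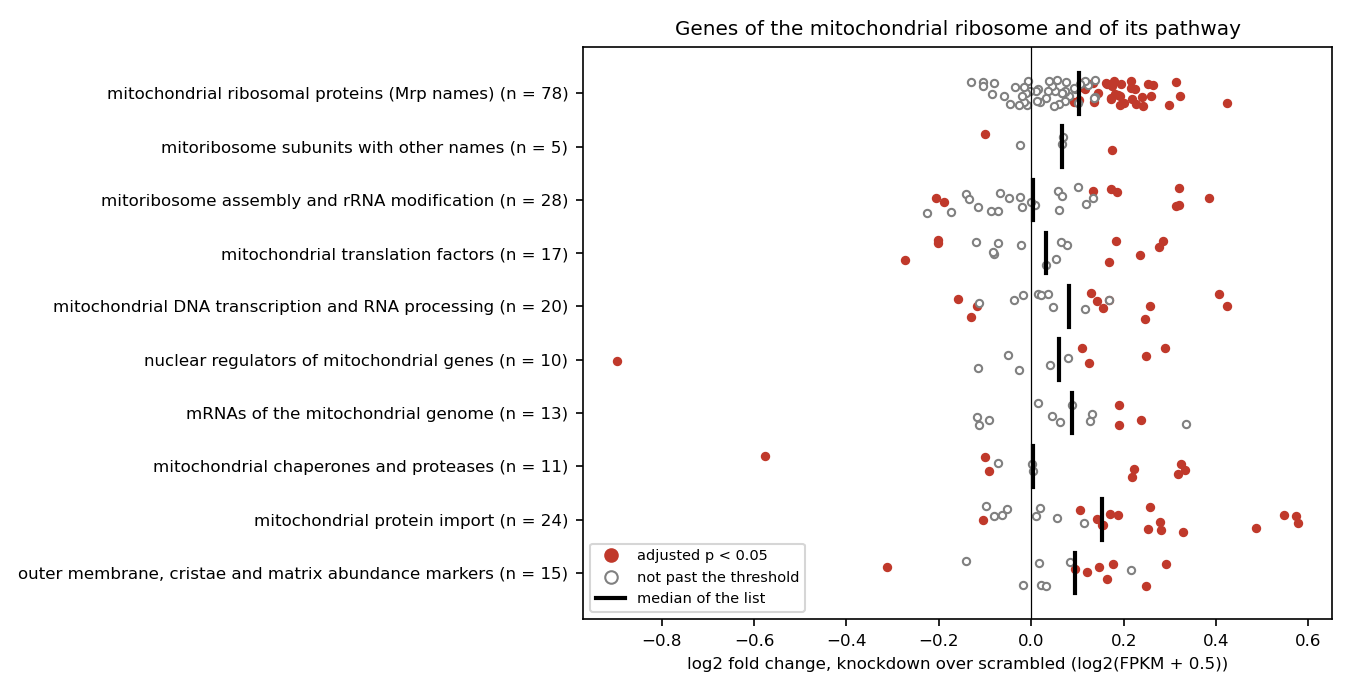
Log2 fold change (knockdown over scrambled, log2(FPKM + 0.5), horizontal axis) of each tested gene in the Mrp-named set and in 9 lists of the mitoribosome's pathway and of mitochondria, 1 row per list with the number of tested genes. Filled points passed an adjusted p of 0.05, and the point farthest left is Atf5 at −0.90. Bars mark medians, which run between 0.00 (chaperones and proteases, and also assembly) and 0.15 (import).

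The start regions of the genes were searched for 4 short motifs of factors known to act at nuclear genes for mitochondria and growth. The motifs were the NRF1 core GCATGCG, the ETS motif CCGGAAG to which GABP binds, the YY1 motif AAGATGG and the E-box CACGTG of MYC and related factors, each on both strands. The E-box reads the same on both strands, and the NRF1 core overlaps its own reverse complement where a C precedes it. RefSeq start regions on GRCm38.p6, from 250 bases before to 50 bases after the start, were at hand for 69 of the 78 genes. The ETS motif was found in 36.2% of them, beside 20.8% of 8320 tested genes and 9.12% of all 27025 start regions. The YY1 motif was found in 18.8%, beside 7.92% and 6.48%, the NRF1 core in 11.6%, beside 7.32% and 3.64%, and the E-box in 7.25%, beside 10.9% and 7.24%. Among the 32 of these genes called higher, 40.6% held the ETS motif, 28.1% the YY1 motif, 6.25% the NRF1 core and 6.25% the E-box. Among the 37 not called, the shares were 32.4%, 10.8%, 16.2% and 8.11%. A match is only a match of letters, and the shares were not tested.

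Shown here are the 250 bases before the start of 4 of the 8 genes with the largest rises, chosen because they hold a searched motif within those bases. Capitals mark the motif, and each region reads 5' to 3' on the gene's strand. The regions are chr17:35916441-35916690 on the minus strand for Mrps18b, chr3:94443086-94443335 on the plus strand for Mrpl9, chr4:155802628-155802877 on the plus strand for Mrpl20 and chr9:105053018-105053267 on the plus strand for Mrpl3 (RefSeq, GRCm38.p6).
Mrps18b: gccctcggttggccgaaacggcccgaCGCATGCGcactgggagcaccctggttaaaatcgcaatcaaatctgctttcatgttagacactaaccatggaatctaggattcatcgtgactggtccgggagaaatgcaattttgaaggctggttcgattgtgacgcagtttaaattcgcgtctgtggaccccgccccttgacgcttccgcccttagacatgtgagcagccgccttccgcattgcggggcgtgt
Mrpl9: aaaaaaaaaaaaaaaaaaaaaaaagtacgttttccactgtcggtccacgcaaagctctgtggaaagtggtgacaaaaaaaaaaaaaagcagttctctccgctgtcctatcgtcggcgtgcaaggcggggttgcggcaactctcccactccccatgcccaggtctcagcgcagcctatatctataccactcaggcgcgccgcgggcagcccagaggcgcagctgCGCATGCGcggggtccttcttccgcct
Mrpl20: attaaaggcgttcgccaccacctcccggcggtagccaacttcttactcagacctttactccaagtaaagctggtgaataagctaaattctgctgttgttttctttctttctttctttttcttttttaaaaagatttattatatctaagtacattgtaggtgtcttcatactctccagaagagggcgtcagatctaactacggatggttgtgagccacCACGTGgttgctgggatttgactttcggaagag
Mrpl3: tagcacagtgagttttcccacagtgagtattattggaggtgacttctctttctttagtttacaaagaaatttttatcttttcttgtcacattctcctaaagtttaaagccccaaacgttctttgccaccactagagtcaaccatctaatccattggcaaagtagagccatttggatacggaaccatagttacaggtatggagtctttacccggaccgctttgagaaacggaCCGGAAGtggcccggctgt
Mrps18b and Mrpl9 hold the NRF1 core on both strands at once, far from the start in Mrps18b and close to it in Mrpl9. Mrpl20 holds an E-box and Mrpl3 an ETS motif, so these 4 genes did not share 1 of the searched motifs within those 250 bases. The bases after the start, included in the shares above, were left out here, and sharing of a motif there was not tested. The 250 bases before the start of Mrpl12, Mrpl16 and Mrpl41, also among the 8 largest rises, held 0 matches to the 4 motifs, and Mrpl19, the other of the 8, was not matched to a start region.

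The 78 genes lie on 17 chromosomes, with 11 on chromosome 11 and 8 on chromosome 17. Many start near a neighbour on the other strand: 33 of the 78 (42.3%) had a coding gene there starting within 1000 bases, against 17.9% of 10022 tested coding genes (GENCODE M21). Both shares include pairs that overlap at their starts as well as pairs that read apart. Of the 16 such genes called higher, 5 had a partner that also rose, 1 a partner that fell, 7 a partner that did not pass and 3 a partner that was not tested. Among those 5, Mrpl18 shares exon bases with its partner Tcp1, Mrps7 with Gga3, and Mrpl46 and Mrps11 with each other. Of the 17 such genes not called, 1 had a partner that rose, 5 one that fell, 9 one that did not pass and 2 one that was not tested. Of all tested genes, 19.8% rose and 31.1% fell. Mrpl46 and Mrps11 are partners of each other, with starts 412 bases apart and overlapping exons, and both rose (0.11 and 0.14). Each is counted among the 5, and reads of overlapping pairs cannot be told apart without the strand setting of the counting. Mrpl46 kept its call in only 8 of 18 other settings and lost it without any 1 of the 6 libraries. Mrps18b starts 45 bases from Ppp1r10, which stood at 0.03 and did not pass. These pairs were named after their values were seen.

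Exons of another gene overlap some of the 78 genes, on the other strand for 28 and on the same strand for 8, while 45 had no such overlap. Among the largest rises, Mrps18b overlaps Gm16279, Mrpl9 overlaps Oaz3, Mrpl19 overlaps Gcfc2, Mrpl12 overlaps Gm16755 and Mrpl3 overlaps Gm47106, all on the other strand, and Mrpl3 also overlaps Gm38077 on its own strand. The sources used here do not state whether counting used the strand, so reads of such pairs cannot be told apart. Mrpl16 and Mrpl20 had no overlapping exon on either strand, and both rose.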

How the data were processed

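Messenger RNA of 6 libraries was sequenced after bead capture and heat fragmentation, per the labels' protocols. The authors deposited 1 FPKM value per gene and library, per the labels. The submitters' processing notes name GRCm38, mm10 and GRCm39 without a step. The sources used here do not state the aligner, the counter or its strand setting.

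Since 1 fragment sets the smallest step of a gene's FPKM in a library, whole fragments and gene lengths could be fitted. A fit within 0.002 of a whole number was found for 19877 of 19877 genes. The shortest length that fitted was taken, so genes of few fragments fit readily, and their length and fragments may be understated. The recovered values give the depth, the counting error and the limma-voom alternative, while the FPKM gave the main result. The 10311 genes that reached 1 FPKM in 3 or more of the 6 libraries were tested on log2(FPKM + 0.5) with limma 3.58.1 in R 4.3.3 (trend on the mean level, two-sided), with Benjamini-Hochberg adjustment over all of them and a threshold of 0.05. Changes of low genes are understated on this scale. Errors are SE for log2 fold changes and SD for FPKM. The code was tested on simulated data.

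The genes, lists and tests were chosen with earlier results of these data known. Text names followed a rule: the 8 largest rises and falls past the threshold, the 3 nearest to 0, the 3 highest and lowest levels, the Mrps18 copies, Mrps36, the 5 subunits with other names, the top rise of each site and the 4 smallest p of each list. Mrps16, Mrps12, Mrps22, Mrpl11, Mrpl33, Mrpl38, Mrpl45, Mrpl46, Mrps11, Mrpl18 and Mrps7 were named after their values were seen. So were Tcp1, Gga3, Ppp1r10, Cd44 and the further mitochondrial mRNAs. Subunits and sites were assigned by hand from known mammalian structures. Positions, GC content and overlaps came from GENCODE M21 on GRCm38, and start regions from RefSeq on GRCm38.p6.

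The labels put libraries of 1 number in 1 batch, so the number pairs them. The deviations of paired libraries correlated at 0.0859, 0.012 and 0.189 over tested genes, and at −0.0353, −0.0586 and −0.0914 over the 78 genes.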

Additional observations from a re-analysis of the deposited data

How the results depend on the processing

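Direction held for the 34 genes called higher in all 18 alternatives that could be fitted for them. With batch as a block, 33 mitoribosomal genes rose and 0 fell, beside 19.9% and 30.8% of all tested genes. Of the 34, 32 kept their call under this block, and Mrps18a (adjusted p = 0.0588) and Mrps22 (0.0561) lost it. Rescaling to TPM gave 22 higher, 3 lower and a median of 0.060, while 14.9% of all tested genes were higher and 39.1% lower. The median was 0.17 under median centring and 0.15 with limma-voom. Genes called lower numbered 1 under quantile normalization and 2 after the trend in GC content, length and level was removed. Adding the replicate block to that removal gave 3, where Mrpl33 stood at −0.085 (adjusted p = 0.0449), against 0.06 as reported. Over all tested genes, 21.9%, 22.6% and 22.9% were lower in these fits. Leaving out each library in turn gave 25 to 32 higher, 0 to 1 lower and a median of 0.08 to 0.11. Over all tested genes those fits gave 16.3% to 19.2% higher and 25.5% to 32% lower. In the pathway lists, 5 genes (3.5%) were lower under median centring and 5 (3.5%) with limma-voom, beside 22.2% and 26.8% of all tested genes. When a library was left out, 8 to 18 (5.59% to 12.6%) were lower. Over all genes, 2042 were lower where the filter was a mean FPKM of at least 5, since fewer genes (7342) were tested. That filter also removed Mrpl1 and Mrpl4. Apart from this filter, the cause of each change was not tested. Differences near the counting error (a median of 0.04 on the log2 scale over the 78 genes) could not be resolved at this depth.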
